A study of Mus musculus with 8 samples.

Results

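Gut endoderm was taken as the 803 cells labelled Gut among 28723 cells of chimeric mouse embryos in the authors' combined annotation, 10 of them Eomes-KO and 793 WT host. Gut cells made up 4.12% ± 0.74 (SD, n = 4 libraries) of the epiblast-derived cells in WT host libraries and 0.102% ± 0.0764 (SD, n = 4) in Eomes-KO libraries. Foregut, midgut and hindgut labels were found in WT host cells and in no Eomes-KO cell. The finer label pharyngeal endoderm was given to 93 Eomes-KO and 323 WT host cells, but most of these, 90 and 282, are surface ectoderm in the combined annotation and lie outside the 803 gut cells. Within gut it was held by 3 Eomes-KO and 41 WT host cells.

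The study asked which tissues can form without Eomes, the T-box transcription factor Eomesodermin, whose gene lies on mouse chromosome 9 (118478212 to 118486132, + strand, GRCm38/mm10). Mouse embryonic stem cells (ESC) were injected into WT C57BL/6 blastocysts, and the chimeras were collected at about E8.5, pooled at roughly 4 embryos a tube and sorted by tdTomato, a red fluorescent protein carried by the injected cells alone. The tdTomato+ cells came from 4 independent male Eomes-KO ESC clones that lack the Eomes sequence between introns 1 and 5, and the tdTomato− cells were the WT host cells of the same chimeras, with no deletion. Each fraction was sequenced with 10x Genomics 3′ chemistry, which gave 4 Eomes-KO and 4 WT host libraries. No library of injected WT ESC was used here, so loss of Eomes and origin from ESC cannot be told apart.

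The gut tube is the epithelium that later lines the digestive tract and the airways and gives rise to organs such as the thyroid, lung, liver and pancreas. Most of it comes from definitive endoderm, which leaves the epiblast through the anterior primitive streak during gastrulation and inserts into the layer of visceral endoderm, so that a smaller number of gut cells descend from visceral endoderm. Eomes is known for its role in specifying definitive endoderm at the streak.

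Libraries are named below by their number of cells in the table, which was 602, 1153, 3346 and 3465 for Eomes-KO and 2414, 3791, 5819 and 8133 for WT host. Summed UMI counts (unique transcript molecules) were between 19370600 and 66414390 per library. The Eomes-KO libraries were mostly deeper, with medians of 8901 to 32559.5 UMIs per cell against 5124 to 11002 in WT host libraries. Some cell barcodes occurred in more than 1 library (80 of 28643). Among gut cells 7 of 803 had such a barcode, none of the 10 Eomes-KO gut cells did, and no barcode joined a pair of gut cells. The table used here held labels and quality measures per cell and no gene counts, so the gut label could not be checked against its markers Sox17, Foxa2, Epcam and Cldn6. It was checked against the other label sets instead. The original atlas label was Gut for exactly the same 803 cells, and all 803 had 1 of 7 extended atlas labels, of which 6 are gut labels and the other is visceral endoderm. These label sets come from the same mapping, in which each cell takes the label most frequent among its 15 nearest atlas cells, and are not independent of each other.

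Gut was compared between genotypes as a share of epiblast-derived cells, that is without extraembryonic ectoderm and visceral, extraembryonic and parietal endoderm labels, which left 8561 Eomes-KO and 19284 WT host cells. The Eomes-KO library of 602 cells held no gut cell, which allows a share of up to 0.499%. The other Eomes-KO libraries held 2 gut cells (0.174%, library of 1153), 3 (0.0897%, library of 3346) and 5 (0.144%, library of 3465). The WT host libraries held 114 (4.76%, library of 2414), 115 (3.06%, library of 3791), 229 (4.44%, library of 5819) and 335 gut cells (4.20%, library of 8133). Every Eomes-KO library therefore lay below every WT host library. The pooled share was 35.2 times higher in WT host cells (exact 95% interval 19.0 to 73.7, counting error only), and the log2 fold change of Eomes-KO against WT host was -5.11 (SE 0.51, edgeR quasi-likelihood test, adjusted p = 4.9e-07). In this fit 16 of 33 labels were lower in Eomes-KO cells, or 48.5%. The original labels mark the same gut cells, so their value of -5.11 (SE 0.52, edgeR, adjusted p = 9e-07) is not a second test. Of the 29 original labels 51.7% were lower. Shares of a whole move together, and erythroid cells, which had 4069 WT host cells and 1 Eomes-KO cell, weigh on every other share.

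The labels that border on gut were scarce or not scarce in different ways. The label definitive endoderm had 64 cells in WT host libraries, mostly notochord or node by their extended labels. It was not found in Eomes-KO libraries. Set against 3 cells over the whole Eomes-KO group, its share was 9.47-fold lower (edgeR, adjusted p = 0.00075). Notochord, the midline rod that leaves the same part of the streak, had 58 WT host cells and 1 Eomes-KO cell (edgeR, adjusted p = 0.0031). Surface ectoderm, the covering epithelium, had 1434 WT host and 588 Eomes-KO cells and did not pass the test, with shares of 6.77% ± 1.84 and 7.99% ± 2.42 (SD, n = 4; log2 fold change 0.22, SE 0.32, edgeR, adjusted p = 0.56). By the original label it had 1542 WT host and 948 Eomes-KO cells and was called higher in Eomes-KO cells. The shares were 7.29% ± 1.92 and 13.5% ± 5.63 (SD, n = 4; log2 fold change 0.87, SE 0.34, edgeR, adjusted p = 0.028). In that fit 7 of 29 labels were higher.

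The extended atlas divides gut along the anterior-posterior axis, and its labels were counted over all epiblast-derived cells, whatever their combined label. Of the 6 gut labels, 5 were lower in Eomes-KO cells, which has to be read against 44 of all 69 extended labels tested (63.8%) and a median log2 fold change of -3.13 over those 69. The count of 5 includes midgut and was 5 in 5 of 17 alternatives, 4 in 11 and 3 in 1.

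Hindgut, the posterior part of the tube, took 0.835%, 0.878%, 0.718% and 1.10% of the WT host libraries of 2414, 3791, 5819 and 8133 cells and 0 of all Eomes-KO cells. Set against 3 cells over the whole Eomes-KO group, its share was 26.3-fold lower (edgeR, adjusted p = 2.4e-06). Hindgut had the smallest spread of the gut labels relative to its level, 0.884% ± 0.161 (SD, n = 4). Midgut, from which most of the small intestine forms, was rare, with 18 WT host cells, none of them in the library of 2414 cells and 0.0388% to 0.175% in the other 3. Set against 3 cells in the same way, its share was 2.66-fold lower (edgeR, adjusted p = 0.033). That call was made in 5 of 15 alternatives (adjusted p from 0.02 to 0.32, log2 fold change from -4.88 to -0.99).

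Foregut, the anterior part that gives rise to organs such as lung and liver, took 0.459%, 0.319%, 0.252% and 0.201% of the WT host libraries of 2414, 3791, 5819 and 8133 cells. These were 52 cells, and the Eomes-KO libraries held none. Set against 3 cells over that group, the foregut share was 7.7-fold lower (edgeR, adjusted p = 0.0002). A count of 0 allows up to 0.499% in the Eomes-KO library of 602 cells, above every WT host share. In that of 1153 cells it allows 0.261%, above those of the WT host libraries of 5819 and 8133 cells. Thyroid primordium, the bud that forms in the floor of the pharyngeal foregut, took 1.42%, 0.718%, 0.757% and 0.489% of the same 4 libraries. In the Eomes-KO libraries of 602, 1153, 3346 and 3465 cells it took 0, 0.087%, 0.0299% and 0.0577%. The log2 fold change was -4.03 (SE 0.65, edgeR, adjusted p = 1.9e-05), on 4 Eomes-KO and 139 WT host cells. All measured Eomes-KO shares were below the WT host ones, but the count of 0 in the library of 602 cells allows up to 0.499%, above the lowest WT host share.

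The extended label Gut tube, which names no region, had 363 WT host and 3 Eomes-KO cells. It took 1.71%, 0.772%, 2.54% and 2.03% of the WT host libraries of 2414, 3791, 5819 and 8133 cells and 0, 0.087%, 0.0299% and 0.0289% of the Eomes-KO libraries in order of size. The share was 53.7 times higher in WT host cells (exact 95% interval 18.2 to 262, counting error only; edgeR, adjusted p = 8.9e-07). Among these WT host cells 353 were gut, 8 definitive endoderm and 2 surface ectoderm in the combined annotation. The extended label visceral endoderm was given to 12 WT host gut cells and no Eomes-KO gut cell. Set against 3 cells, the share was 1.78-fold lower (edgeR, adjusted p = 0.033, a call made in 5 of 12 alternatives). Cells with this label that were visceral (50 WT host, 1 Eomes-KO) or extraembryonic endoderm (7 WT host) in the combined annotation were left out. The paper ascribes the lack of non-epiblast lineages among Eomes-KO cells to the restricted potency of ESC. This test therefore cannot show an effect of Eomes loss.

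**Figure D1:**
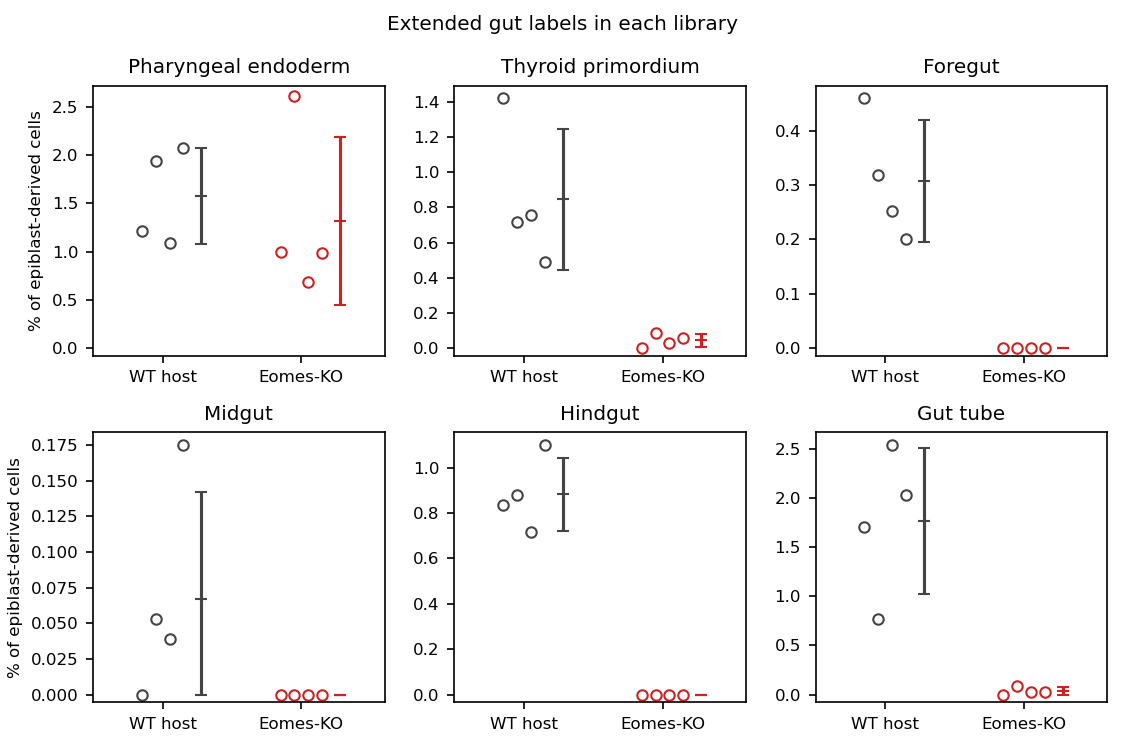
Share of epiblast-derived cells (y axis, %) with each of the 6 extended gut labels in the 4 WT host (grey) and 4 Eomes-KO (red) libraries, ordered by cell number; circles are libraries, and the dash with bars is the mean ± SD, with bars stopped at 0; each panel has its own y axis. Eomes-KO libraries lie at or near 0 for 5 labels and between 0.688% and 2.61% for pharyngeal endoderm.

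Pharyngeal endoderm, the anterior endoderm that lines the pharyngeal pouches, stood apart from the other gut labels in its counts. It took 0.998%, 2.61%, 0.688% and 0.981% of the Eomes-KO libraries of 602, 1153, 3346 and 3465 cells and 1.21%, 1.94%, 1.09% and 2.07% of the WT host libraries of 2414, 3791, 5819 and 8133 cells. The groups overlapped, and the highest value was that of an Eomes-KO library. The means were 1.32% ± 0.872 and 1.58% ± 0.5 (SD, n = 4), and the log2 fold change of -0.31 did not pass the test (SE 0.44, edgeR, adjusted p = 0.54). That error leaves room for a moderate change in either direction. The sign also turned with the scaling, to 0.33 with TMM factors and 0.92 with DESeq2 poscounts size factors, which moved the median of all extended labels by 0.67 and 1.29. Without the Eomes-KO library of 1153 cells the value was -0.87 (edgeR, adjusted p = 0.069).

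Most cells with the extended label pharyngeal endoderm were not gut in the combined annotation but surface ectoderm. Among the 93 Eomes-KO cells 90 were surface ectoderm and 3 gut, and among the 323 WT host cells 282 were surface ectoderm and 41 gut. The gut fraction of these cells was 0, 0, 4.35% and 5.88% in the Eomes-KO libraries of 602, 1153, 3346 and 3465 cells and 24.1%, 15.1%, 14.3% and 9.09% in the WT host libraries of 2414, 3791, 5819 and 8133 cells. The first of these zeros is 0 of 6 cells, which has an exact upper limit of 45.9%, and this comparison was chosen after the values were seen and was not tested. The surface ectoderm ones had a median extended label score, the fraction of the nearest atlas cells with that label, of 0.6 where they were Eomes-KO and 0.733 where they were WT host, while the median score of their original label was 1.0 in both. Without gene counts it was not tested whether these cells are endoderm or ectoderm. Pharyngeal endoderm was thus the label of 93 of the 100 Eomes-KO cells with any of the 6 extended gut labels and of 323 of 1073 such WT host cells (30.1%).

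Within WT host gut the extended labels gave its composition. Gut tube was the most frequent label over the 4 libraries at 40.6% ± 13.4 (SD, n = 4) of gut cells, followed by hindgut at 22.2% ± 6.24 and thyroid primordium at 20.5% ± 7.88. Foregut made up 7.63% ± 2.82, pharyngeal endoderm 5.92% ± 2.66, midgut 1.7% ± 1.8 (0.871% without the library of 8133 cells) and visceral endoderm 1.46% ± 0.409. In percentage points, libraries differed most in gut tube, with 36.0%, 24.3%, 55.0% and 47.2% in those of 2414, 3791, 5819 and 8133 cells. Hindgut was the most frequent label in the library of 3791 cells, at 28.7%, against 17.5%, 16.2% and 26.3% in the libraries of 2414, 5819 and 8133 cells. Thyroid primordium was 29.8%, 23.5%, 17.0% and 11.6% in order of library size. The regional labels and gut tube therefore took different shares of gut in libraries of the same genotype.

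Of the 10 Eomes-KO gut cells, 4 were thyroid primordium, 3 pharyngeal endoderm and 3 gut tube. Thyroid primordium and pharyngeal endoderm together held 7 of 10 Eomes-KO gut cells (exact binomial 95% interval 34.8% to 93.3%) and 180 of 793 WT host gut cells (22.7%, interval 19.8% to 25.8%). By library the WT host share was 36.0%, 33.0%, 20.5% and 16.1% in order of size. Foregut, also an anterior label and not in this pair, held none of the 10 and 52 of 793 (6.56%). Foregut, midgut and hindgut together held none of the 10 and 248 of 793 WT host gut cells (31.3%), and an absence in 10 cells has an exact upper limit of 30.8%. By library this WT host share was 27.2%, 40.9%, 22.7% and 35.2% in order of size, on both sides of that limit. Midgut and hindgut alone, the posterior labels, held 196 of 793 (24.7%), so a lack of them within Eomes-KO gut was not detectable with 10 cells. These groupings were made after the labels were seen and were not tested.

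**Figure D2:**
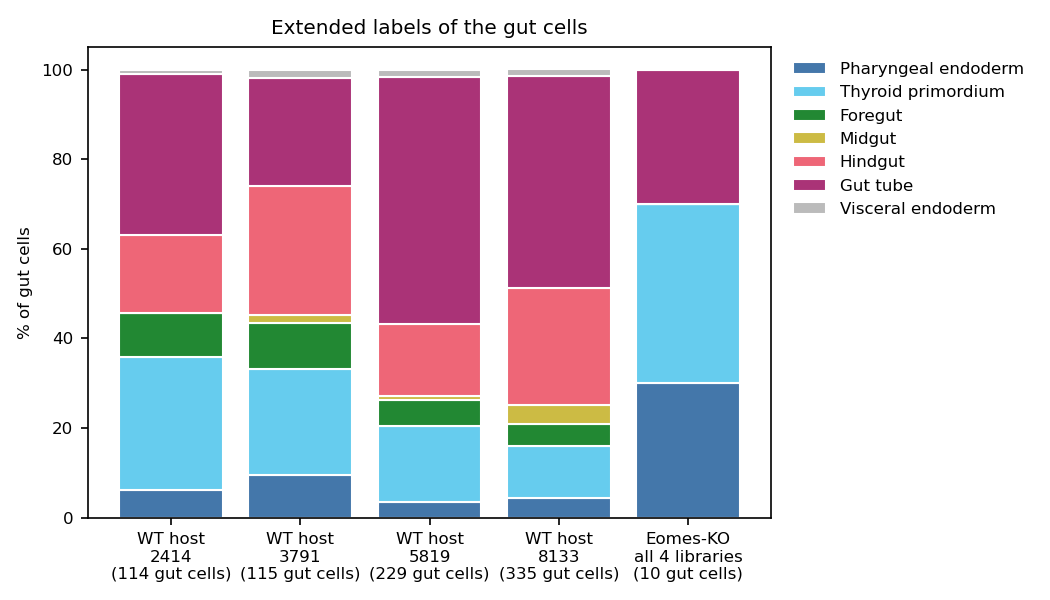
Extended labels of the gut cells as a share of gut cells (y axis, %) in each WT host library, named by its number of cells, and in the 10 Eomes-KO gut cells of all 4 libraries together. Gut tube ranges from 24.3% to 55.0% among WT host libraries, and the Eomes-KO bar holds thyroid primordium, pharyngeal endoderm and gut tube only.

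The mapping also gives each cell an atlas stage from the same nearest atlas cells that give its extended label, so stage and label are linked. Gut held more early cells than the rest of the epiblast-derived cells of the same WT host library. The E7.75 share was 13.2% in gut against 9.95% in the rest in the library of 2414 cells, 11.3% against 3.38% in that of 3791, 30.6% against 8.85% in that of 5819 and 23.0% against 6.48% in that of 8133. The mean difference was 12.3 percentage points ± 8.33 (SD, n = 4), higher in 4 of 4 libraries (two-sided exact sign-flip permutation test, p = 0.125, the smallest that 4 libraries allow). The E7.5 share was also higher in 4 of 4, at 3.45% ± 3.13 against 0.508% ± 0.284 (exact p = 0.125). Its size rested on the library of 2414 cells, with 7.89% of gut cells against 0.87% to 3.28% in the other 3, and the difference of 2.94 points was 1.48 without it. The E8.25 share was lower in 4 of 4, at 31.3% ± 7.89 against 43.5% ± 5.47 (exact p = 0.125). The E8.0 and E8.5 shares differed in no uniform direction, with 19.6% against 21% and 26.1% against 27.8% (exact p = 0.625 each). Over all 13 within-library comparisons, 8 of cell measures and 5 of stages, no p could pass 0.05 in this design.

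Early stages were concentrated in 1 label. All 25 E7.5 cells of WT host gut were gut tube, as were 150 of its 175 E7.75 cells. Stages up to E8.0 covered 80.5%, 71.4%, 86.5% and 79.7% of gut tube cells in the WT host libraries of 2414, 3791, 5819 and 8133 cells. The corresponding shares were 20%, 15.2%, 10.8% and 15.9% in hindgut and 20.6%, 11.1%, 30.8% and 25.6% in thyroid primordium, so gut tube lay above both in every library. At the late end, E8.5 covered 2.83% of gut tube and 73.2% of pharyngeal endoderm cells over all libraries, with 0 to 4.88% and 57.1% to 90.9% per library. Thyroid primordium (26.5% to 43.6%), foregut (23.1% to 62.5%) and hindgut (29.7% to 59.1%) overlapped between libraries and were not ordered, and 14 of the 18 midgut cells came from the library of 8133 cells. Outside gut tube the E7.75 share of WT host gut was 4.11%, 4.60%, 6.80% and 6.21% in order of library size, below the rest of the library in 3 of 4 and above it in that of 3791 cells.

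**Figure D3:**
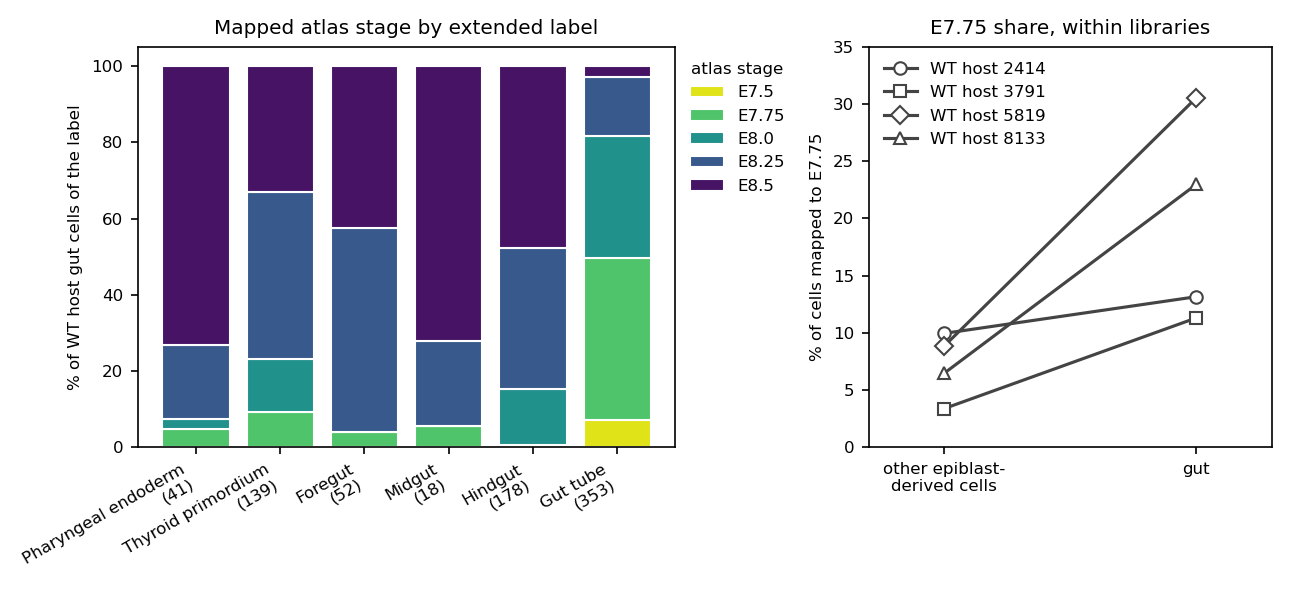
Left, atlas stage (colours) of the WT host gut cells of each extended label, as a share of that label (y axis, %; number of cells in parentheses); right, share of cells mapped to E7.75 (y axis, %) in gut and in the other epiblast-derived cells, with a line for each WT host library. Stages E7.5 and E7.75 sit mainly in gut tube, and the E7.75 share is higher in gut in all 4 libraries.

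Among related WT host labels, gut held more early cells than surface ectoderm and fewer than visceral and extraembryonic endoderm. Over all libraries, E7.5 and E7.75 together covered 25.2% of gut, 28.1% of definitive endoderm, 44.8% of notochord and 4.11% of surface ectoderm cells. By library gut had 12.2% to 32.3% and surface ectoderm 1.75% to 8.94%. Definitive endoderm (12.5% to 47.6%) and notochord (29.4% to 66.7%) overlapped with gut and were not ordered against it. Visceral and extraembryonic endoderm, the primitive endoderm derivatives, were earlier, with 84.0% and 73.3%. The 64 definitive endoderm cells were mostly axial by their extended labels, with 36 notochord, 13 node and 6 anterior primitive streak cells, and only 8 were gut tube.

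Gut cells were shallower than the other epiblast-derived cells of their library and had more mitochondrial RNA. Median UMIs were 7283.5 in gut against 8415 in the rest in the library of 2414 cells, 8240 against 10858 in that of 3791, 8970 against 10932 in that of 5819 and 4453 against 5143 in that of 8133. Gut was the label with the fewest UMIs in 3 of 4 libraries among labels with at least 20 cells. The mitochondrial percentage was 2.12% against 1.59%, 1.79% against 1.40%, 2.34% against 1.89% and 2.38% against 1.75% in the same order, a mean difference of 0.499 points ± 0.103 (SD, n = 4; exact p = 0.125). Gut had the highest mitochondrial median in 3 of 4 libraries and was 3rd of 27 labels in that of 5819 cells. Related labels were mostly too small for this order. Over all WT host cells their mitochondrial medians were 2.19% in definitive endoderm, 2.32% in notochord, 2.73% in extraembryonic and 3.42% in visceral endoderm, against 2.24% in gut. Their median UMIs were 5180 to 6200 against 6120 in gut. These medians pool libraries of different depth and can hide differences within libraries. Surface ectoderm had a pooled median of 6260 UMIs, yet the mean difference of gut from it within libraries was -964. Neither measure was thus shown to be particular to gut. Ribosomal RNA was lower in 4 of 4 libraries, at 24.6% ± 0.354 against 25.9% ± 0.941 (exact p = 0.125). The number of genes detected was lower in 4 of 4 libraries, at 2590 ± 475 against 2710 ± 507 (SD, n = 4; exact p = 0.125). The doublet score was higher in 3 of 4, at 0.198 ± 0.015 against 0.178 ± 0.015 (SD, n = 4; exact p = 0.25). Among gut labels the mitochondrial median over cells ran from 1.53% in pharyngeal endoderm and 1.95% in thyroid primordium to 2.29% in gut tube and 2.65% in foregut.

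Gut was clear by its original label and less clear by region and stage. The median original label score was 1 in gut and 0.933 in the rest in all 4 WT host libraries. The median extended label score was 0.733 against 0.85 ± 0.0333 and the stage score 0.467 against 0.617 ± 0.0333 (lower in 4 of 4 libraries, exact p = 0.125 each). With blood labels left out of the rest, the differences shrank to -0.0167 for the extended and 0.0167 for the original label score (exact p = 1 each), while that of the stage score stayed at -0.15. Over WT host gut cells, hindgut was the most uniform label, with a median extended score of 0.933, while thyroid primordium and pharyngeal endoderm had 0.6.

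On the atlas map, WT host gut cells were spread by region. The median position on the second axis was -8.95 for pharyngeal endoderm, -9.79 for thyroid primordium, -10.81 for gut tube, -11.38 for foregut and -11.89 for midgut cells. Hindgut lay apart on the first axis, at -4.52 against -6.25 to -5.65 for these 5 labels. Positions are those of the closest atlas cell, and 793 WT host gut cells shared 546 of them, while the 10 Eomes-KO gut cells had 10. For 8 of the 10 the closest atlas cell was also the closest one of a WT host gut cell.

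**Figure D4:**
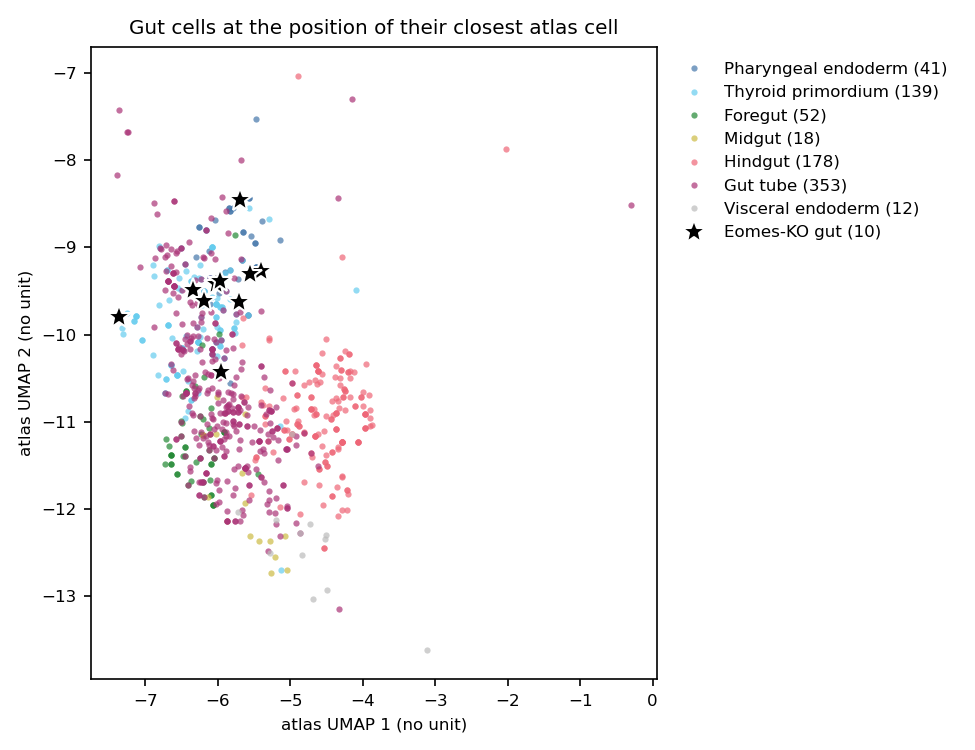
Gut cells drawn at the atlas UMAP position of their closest atlas cell (both axes without unit), with WT host cells as dots coloured by extended label (number of cells in parentheses) and the 10 Eomes-KO gut cells as black stars. The stars lie with the thyroid primordium, pharyngeal endoderm and gut tube cells, and none lies in the hindgut group.

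The 10 Eomes-KO gut cells can be given one by one. In the library of 1153 cells, a thyroid primordium cell at E8.5 had 17102 UMIs and 1.35% mitochondrial RNA, and a gut tube cell at E8.0 had 26639 UMIs and 1.36%. In the library of 3346 cells, a gut tube cell at E8.0 had 5445 UMIs and 3.6%, a thyroid primordium cell at E8.5 had 12112 UMIs and 2.82%, and a pharyngeal endoderm cell at E8.5 had 14010 UMIs and 1.72%. Both gut tube cells among these 5 thus mapped to E8.0. In the library of 3465 cells, a thyroid primordium cell at E8.0 had 4300 UMIs and 4.05%, a pharyngeal endoderm cell at E8.5 had 4323 UMIs and 1.43%, and a gut tube cell at E8.25 had 4901 UMIs and 4.02%. The other 2 cells of that library were a thyroid primordium cell at E8.25 with 10545 UMIs and 2.31% and a pharyngeal endoderm cell at E8.25 with 11605 UMIs and 1.76%.

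None of the 10 mapped to E7.5 or E7.75, against 200 of 793 WT host gut cells (25.2%), but a count of 0 in 10 cells allows a share of up to 30%. The median original label score of the Eomes-KO gut cells was 0.766 (range 0.533 to 1) against 1 in WT host gut, and 2 of 10 were at 1. The median extended score was 0.567 (range 0.267 to 0.867) against 0.733, with 3 of 10 at or above that value. Of the 10 cells 7 were thyroid primordium or pharyngeal endoderm, labels whose WT host median extended score was also 0.6. Each of the 10 lay inside the WT host range of mitochondrial RNA, 0.02% to 4.99%. That range spans nearly all that the authors' filter keeps, so almost any kept cell would lie inside it. The highest values, 4.05% and 4.02%, each lay above 95.7% of WT host gut cells. Of the 10 cells, 2 lay above the WT host maximum of 16852 UMIs. Against their own libraries, 7 of 10 lay below the median UMIs, 3 were in the lowest 5%, and 4 were above 95% of the cells in mitochondrial RNA.

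Other labels that were near absent from Eomes-KO libraries also had single cells there. The Eomes-KO libraries held 5 non-epiblast cells, 1 erythroid cell, 1 notochord cell and 2 cardiomyocytes. The library of 3465 cells held the most gut cells, 5, and no non-epiblast cell. Whether any of the 10 gut cells was a stray WT host cell was not tested.

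**Figure D5:**
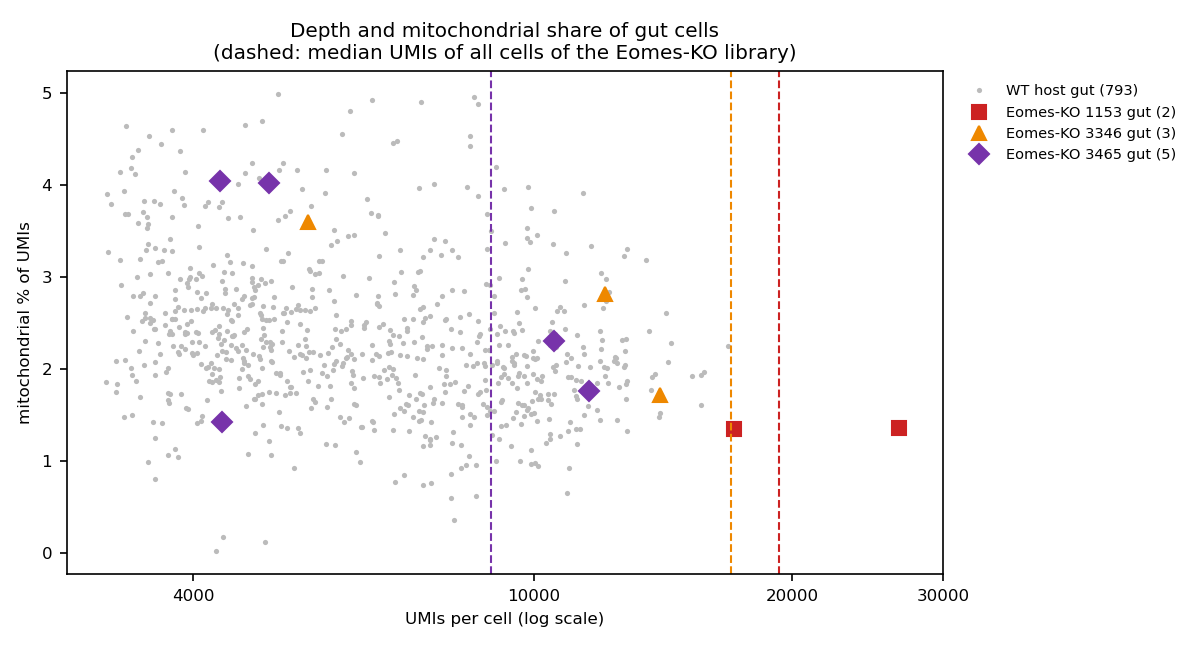
UMIs per cell (x axis, log scale) against the mitochondrial percentage of UMIs (y axis) for the 793 WT host gut cells (grey dots) and the 10 Eomes-KO gut cells (coloured by library, named by its number of cells); dashed lines mark the median UMIs of all cells of those Eomes-KO libraries. The Eomes-KO gut cells run from 4300 to 26639 UMIs, and 7 of 10 lie left of the line of their own library.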

How the data were processed

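The authors counted reads with Cell Ranger 6.0.1 on mm10, as also named by the submitters' processing notes, filtered cells by UMIs, genes, mitochondrial and ribosomal RNA, removed cells with a doublet score above 0.5, and mapped each library to atlas cells of E7.5 to E8.5. The deposited table of the authors has 1 line per cell with raw UMI and gene counts, the mitochondrial and ribosomal percent of UMIs and the doublet score. It also has 3 sets of labels (42 combined, 37 original, 77 extended), of which the authors made the combined set from the other ones. The original and extended labels each have a score equal to the fraction of 15 nearest atlas cells with that label. Where combined labels were filtered by score, the original label score was used. The table held fewer cells than the study's methods state, and the filters hold only for the cells in it. Doublets were not called again.

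Genotype was taken from the tdTomato column, and libraries are named by their cell number. Library names do not show the embryo pool, so the pool term of the study's own test could not be fitted. Cells were summed per library and label, and the quasi-likelihood test of edgeR 4.0.16 (glmQLFit, glmQLFTest; R 4.3.3) was run on labels with at least 10 cells, with genotype alone, epiblast-derived cells as library size and Benjamini-Hochberg adjustment at 0.05. SE was obtained as the size of the log2 fold change over the square root of F. A label with no Eomes-KO cell was given a fold against 3 cells over the group, and the share that a count of 0 allows is 3 cells of the total. That fold leaves out the counting error of WT host cells and the spread between libraries, so it is not a lower limit. Binomial intervals are exact (Clopper-Pearson, 95%). Differences between gut and the rest were taken within each of the 4 WT host libraries and tested by two-sided exact sign flips in scipy 1.17.1 (Python 3.11.15). Alternatives were TMM, DESeq2 1.42.0, limma 3.58.1 on log2 shares with 0.5 cells added, no filter on rare labels, all cells as denominator, cells of at least 10000 UMIs, of a label score of 0.5 or more or of a doublet score under 0.25, leaving out each library, and other comparison cells. The rest without blood labels was added after the data were seen.

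The text names gut in all label sets, the 6 extended gut labels, other labels with at least 1% of WT host gut cells, every label of an Eomes-KO gut cell, and definitive endoderm, notochord, surface ectoderm and visceral and extraembryonic endoderm for comparison. The erythroid, cardiomyocyte and non-epiblast counts and the extended labels of definitive endoderm were named after their values were seen. Members and lists were chosen with earlier results of these data known.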

Additional observations from a re-analysis of the deposited data

Results flagged for a closer look

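In each group of 4 libraries, the highest and lowest values were checked for a gap to the next library that is large against the whole range (Dixon's 95% value). Of 41 groups of values 4 had such a library. Chance gives about 1 in 20 for continuous values, a rate that does not hold for tied ones.

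Pharyngeal endoderm was highest in the Eomes-KO library of 1153 cells, at 2.61% of epiblast-derived cells against 0.688% to 0.998% in the other 3. The median doublet score of gut was highest in the WT host library of 2414 cells, at 0.22. The difference of gut and the rest in the extended label score was nearest to 0 in the WT host library of 8133 cells, at -0.0667, and that in the stage score was lowest in the WT host library of 3791 cells, at -0.2. These scores move in steps of 1 atlas cell of 15. In the doublet, extended label and stage score groups the other libraries were tied, so any library that differed was flagged.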

How the results depend on the processing

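No paired analysis was possible because the library names in the cell table do not show which embryo pool a library came from. The gut share stayed lower in Eomes-KO cells and past the threshold in all 17 alternatives, with log2 fold changes from -6.09 to -3.93 (combined labels). The original labels, which mark the same gut cells, gave -5.87 to -3.93 and are not a separate check. Foregut (16 alternatives), thyroid primordium, hindgut and gut tube (17 each) stayed called. The count of extended gut labels that were lower was 5 in 5 of 17 alternatives, 4 in 11 and 3 with at least 10000 UMIs, and from 4 to 5 when single libraries were left out. Pharyngeal endoderm turned to 0.33 (TMM), 0.92 (poscounts) and 0.41 (at least 10000 UMIs). DESeq2 poscounts called 29 extended labels lower and 15 higher, TMM 34 and 11, against 44 and 7 in the edgeR fit.

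In WT host gut with at least 10000 UMIs (1 cell in the library of 8133 cells), hindgut became 41.6%, gut tube 24.2% and visceral endoderm 0, and with a score of at least 0.5 visceral endoderm became 0.994%. By any extended gut label the Eomes-KO gut cells were 100 instead of 10. Against surface ectoderm alone the gut difference became -0.02 for the doublet score, 0 for the original label score, 0.0333 for the extended label score and 8.31 points for E8.0. With each label counted once it became -0.0113 for the doublet score and 4.73 points for E8.5, and without blood labels -0.0125 for the doublet score. Leaving out single libraries gave -3.77 to 0.236 points for E8.0 and -4.18 to 0.343 for E8.5. The causes were not tested. UMIs, mitochondrial and ribosomal RNA and the E7.5, E7.75 and E8.25 shares kept their direction in every alternative run.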
